A study of Mus musculus with 58 samples.

Results

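The livers of mice given a high daily dose of benz(a)anthracene (BaA) were compared with the livers of mice given a low dose, with no use of the vehicle livers. The arrays were those that the labels name liver of D3 (80 mg/kg-bw/day, 4 mice, numbers 16 to 19) and liver of D1 (20 mg/kg-bw/day, 5 mice, numbers 6 to 10), 9 of the 58 arrays of the series. The livers of D2 (40 mg/kg-bw/day, 5 mice, numbers 11 to 15) entered the same model, to share the estimate of the spread and to show where the middle dose lay. The question was which hepatic transcripts differed with the size of the dose among animals that all received BaA.

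All animals were Muta™Mouse males of about 10 weeks, a transgenic line that carries a bacterial lacZ reporter for scoring mutations. They were gavaged once daily for 28 days with BaA in olive oil, and tissues were collected 72 hours after the last dose. The D0 group received olive oil alone. Each array compared the RNA of the liver of 1 mouse, labelled with Cy5, with a universal mouse reference RNA pooled from cell lines, labelled with Cy3. Values are log2 ratios of liver to reference, so 0 means the brightness of the reference, and a difference of 1 between groups is a doubling. Each array was a separate animal, no arrays held identical values, and the number of arrays limits the precision. RNA came from a random section of the left lobe, and in such bulk RNA fewer cells of a type and less RNA per cell cannot be told apart.

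BaA is a polycyclic aromatic hydrocarbon. Such compounds bind the aryl hydrocarbon receptor (AhR), a transcription factor that enters the nucleus, pairs with ARNT and binds DNA motifs with the core GCGTG, next to genes such as Cyp1a1, Cyp1a2 and Cyp1b1. The encoded enzymes oxidise the compound, partly to products that form DNA adducts, and damaged DNA can activate p53 targets such as Cdkn1a and Mdm2. Liver also expresses other xenobiotic sensors (CAR, PXR, Nrf2) and many genes under the circadian clock, whose activators bind the E-box CACGTG.

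A probe was tested if it was well above background in the liver channel on at least 4 of the 14 arrays of D1, D2 and D3, which 21902 probes were. A probe was called if its adjusted p was at most 0.05 and its fold change at least 1.5. All p-values for D3 against D1 are two-sided and come from limma, adjusted by Benjamini-Hochberg over the tested probes. Between arrays of D1 the correlation of log2 ratios was 0.966 to 0.989, within D3 it was 0.975 to 0.989, and between D1 and D3 arrays it was 0.964 to 0.987, and these ranges overlap. The arrays lay on 3 slides that each held D1, D2 and D3 livers, but not in equal shares. Slide 1 held D1 mouse 9 and D3 mice 18 and 19. Slide 2 held D1 mice 6 and 7 and D3 mouse 17. Slide 3 held D1 mice 8 and 10 and D3 mouse 16. The main model had no term for slide. The share of spots well above background was 34.1 to 35.8% on slide 1, 36.3 to 38.2% on slide 2 and 40.7 to 42.7% on slide 3. The hepatocyte markers, among them Alb, Apoa1 and Ttr, were all 10 measured, with a mean log2 ratio of 6.68 to 7.23 per array in D1 and 6.60 to 6.95 in D3. The liver of D1 mouse 8 stood apart: the metallothionein Mt1 was 2.34 there and -4.21 to -3.64 in the other D1 livers, and acute phase genes and neutrophil markers were also highest there. For clock, acute phase, neutrophil and metallothionein genes, values are also given without this liver.

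The promoters of 4 genes are shown because the results turn on them or because they hold the motif by which a pathway is read. Each window holds 300 bases, most of them before an annotated gene start, written 5′ to 3′ on the strand of the gene, from RefSeq on GRCm38.p6. Capitals mark GCGTG or its reverse complement CACGC in Pigt and Cyp1a1, and CACGTG in Tef, and the Srsf5 window holds no match to GCGTG. The windows are Pigt (chr2:164497275-164497574, forward strand), Srsf5 (chr12:80945249-80945548, forward strand), Cyp1a1 (chr9:57697363-57697662, forward strand) and Tef (chr15:81802423-81802722, forward strand).
Pigt: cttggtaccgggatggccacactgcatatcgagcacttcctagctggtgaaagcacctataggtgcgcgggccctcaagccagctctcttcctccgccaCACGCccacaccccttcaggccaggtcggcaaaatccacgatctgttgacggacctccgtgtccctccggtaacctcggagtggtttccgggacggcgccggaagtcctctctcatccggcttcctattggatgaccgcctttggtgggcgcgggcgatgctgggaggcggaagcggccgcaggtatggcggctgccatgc
Srsf5: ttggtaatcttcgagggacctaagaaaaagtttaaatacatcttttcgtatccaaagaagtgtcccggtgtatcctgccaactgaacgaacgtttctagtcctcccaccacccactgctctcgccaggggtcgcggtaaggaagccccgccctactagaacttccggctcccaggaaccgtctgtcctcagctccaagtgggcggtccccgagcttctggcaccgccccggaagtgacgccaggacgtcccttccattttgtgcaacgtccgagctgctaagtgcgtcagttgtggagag
Cyp1a1: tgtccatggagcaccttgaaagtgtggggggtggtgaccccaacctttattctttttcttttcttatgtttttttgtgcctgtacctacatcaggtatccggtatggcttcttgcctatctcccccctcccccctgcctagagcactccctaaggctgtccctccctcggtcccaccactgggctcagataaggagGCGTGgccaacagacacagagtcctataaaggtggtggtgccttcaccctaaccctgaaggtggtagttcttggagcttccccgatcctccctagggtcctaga
Tef: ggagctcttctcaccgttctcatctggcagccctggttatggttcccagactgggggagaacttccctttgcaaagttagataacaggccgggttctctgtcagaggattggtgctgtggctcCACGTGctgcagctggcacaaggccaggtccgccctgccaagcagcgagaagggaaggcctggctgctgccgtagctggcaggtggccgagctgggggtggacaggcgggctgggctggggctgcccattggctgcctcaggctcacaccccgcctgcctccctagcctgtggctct

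Pigt and Cyp1a1 each held 1 match to the AhR core in this window and Srsf5 held 0. The window of Cyp1a2, not shown, also held 0. Among all 32851 windows, 32.4% held GCGTG on either strand and 7.15% held CACGTG, so a match is common and is a description only. GCGTG was present in 6 of the 10 genes named below as higher at D3, in 4 of the 7 named as lower that have a window, and in 5 of the 8 genes with a window among the AhR list. CACGTG was present in 4 of the 9 clock output genes with a window (Tef, Per1, Bhlhe41 and Ciart), and in 0 of those named as higher or lower.

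The high-dose livers differed from the low-dose livers in 2 probes. Pigt, a subunit of the transamidase that attaches glycosylphosphatidylinositol anchors to proteins, rose with dose. Gm4759, a predicted gene whose transcript is annotated as non-coding, fell. These calls are 0.00913% of the 21902 probes (0.00457% in each direction), and 2736 probes (12.5%) had an unadjusted p under 0.05, of which 1246 (5.69%) were higher and 1490 (6.8%) lower at D3. In the log2 table that the authors deposited, tested the same way, 7 probes were called (0.032%), 2 higher and 5 lower, Pigt, Gm4759 and Srsf5 among them.

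The log2 ratio of Pigt was 0.29, 0.62, 0.47, 0.55 and 0.74 in D1 mice 6 to 10, and 2.10, 2.18, 2.03 and 1.58 in D3 mice 16 to 19. Every D3 liver lay above every D1 liver. The difference was 1.44 (SE 0.17, adjusted p = 0.0136), a 2.71-fold increase. At the middle dose the values were 0.60, 1.44, 0.45, 0.84 and 0.77, of which that of mouse 12 alone was near D3, and the D0 livers averaged 0.41 ± 0.40 (SD, n = 5). Within slides 1, 2 and 3 the difference was 1.25, 1.73 and 1.49. The call was lost without mouse 6, mouse 7 or mouse 18 (adjusted p = 0.0633, 0.0504 and 0.104) and with median centring in place of loess (0.132), while over the 27 settings with a test the difference was 1.29 to 1.57.

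The log2 ratio of Gm4759 was 0.76, 0.86, 0.67, 0.34 and 0.74 in D1, and 0.10, -0.05, 0.01 and -0.25 in D3. The D2 livers were at 0.37, 0.30, 0.34, 0.20 and 0.38, all above the D3 livers, with mice 11 and 15 above D1 mouse 9 and the other 3 below every D1 liver. The D3 livers were lower than all D1 livers, by -0.72 (SE 0.10, adjusted p = 0.042). A second probe of the gene was not well above background on any of the 14 arrays. The adjusted p ranged from 0.0063 to 0.235 over the settings run. The call was lost with the D1 and D3 arrays alone (adjusted p = 0.186), with median centring (0.183) and without any 1 of mice 6, 7, 11 to 15 or 17 to 19.

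**Figure D1:**
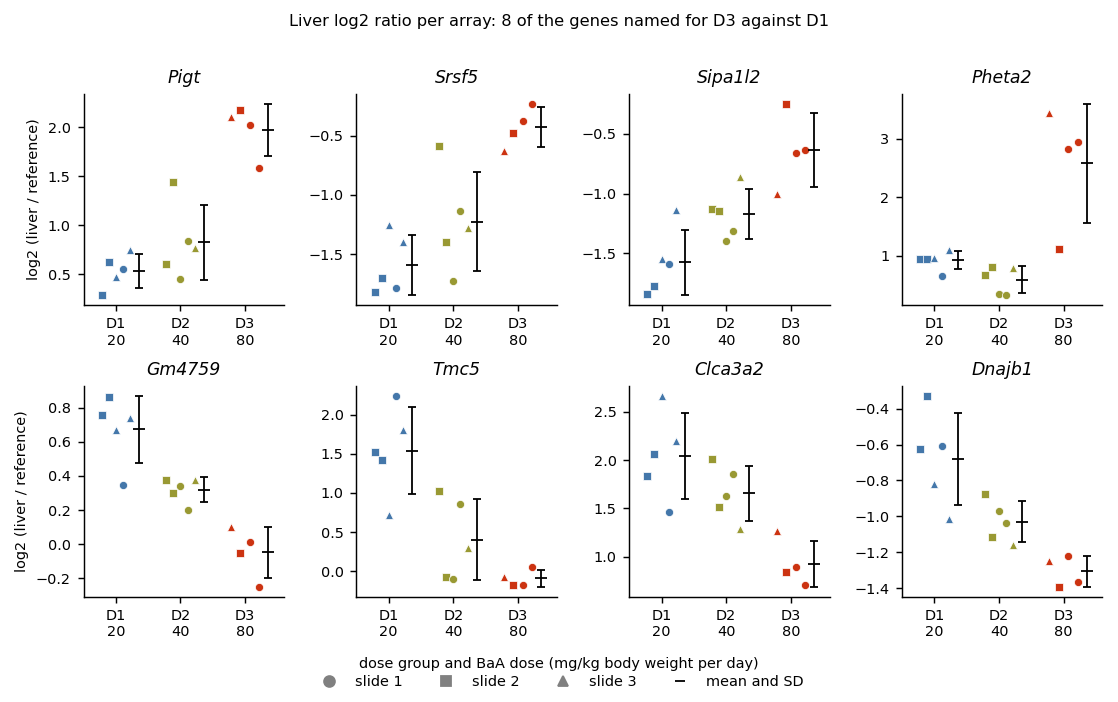
Log2 ratio of liver to reference (vertical axis) by dose group in mg/kg-bw/day (horizontal axis) for 8 of the genes named for D3 against D1, with 1 point per mouse, its shape giving the slide, and a bar at the group mean ± SD. Pigt, Srsf5, Sipa1l2 and Pheta2 sit higher in D3 than in D1 with no overlap, and Gm4759, Tmc5, Clca3a2 and Dnajb1 sit lower with no overlap.

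Beyond these 2 calls, 921 probes (4.21%) had D3 and D1 livers that did not overlap, 430 higher (1.96%) and 491 lower (2.24%). Of these, the genes with the smallest unadjusted p at a fold of at least 1.5 are described next as not called, to a total of 10 in each direction.

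Srsf5 encodes a serine/arginine-rich splicing factor. Its log2 ratio was -1.82, -1.70, -1.25, -1.79 and -1.40 in D1, and -0.63, -0.48, -0.38 and -0.23 in D3, with no overlap. The D2 livers spanned both ranges, at -0.58, -1.40, -1.73, -1.14 and -1.28. The difference of 1.17 (SE 0.19) had an adjusted p of 0.0656, and it passed the threshold in the deposited table (1.10, adjusted p = 0.0382), with slide as a block (1.20, 0.0484), with the D1 and D3 arrays alone (adjusted p = 0.0412), without mouse 8 (1.25, 0.0202) and without mouse 16 (1.23, 0.0364). Over all settings run its adjusted p ranged from 0.0137 to 0.265. The D0 livers averaged -0.93 ± 0.31 (SD, n = 5), between the D1 mean of -1.59 ± 0.25 (n = 5) and the D3 mean of -0.43 ± 0.17 (n = 4), so for this gene the order of the means did not follow the order of the doses once the vehicle is included. In the lung the same contrast was also positive, by 1.02 (adjusted p = 0.00297).

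Sipa1l2, of a family of proteins that switch off Rap GTPases, was -1.84, -1.77, -1.54, -1.59 and -1.14 in D1 and -1.01, -0.25, -0.66 and -0.63 in D3. The difference was 0.94 (SE 0.16, adjusted p = 0.0762), and the D2 mean of -1.17 lay between. It was called with slide as a block (0.98, adjusted p = 0.0491), in the Cy5 channel alone (0.0147) and without mouse 8 (0.0484), mouse 10 (0.027) or mouse 16 (0.028), in a range of 0.0147 to 0.294 over the settings run. Within slide 3, which holds D3 mouse 16, the difference was 0.34, against 0.95 and 1.56 on slides 1 and 2.

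Pheta2, an adaptor of endosomal trafficking, was 0.95, 0.95, 0.97, 0.67 and 1.10 in D1, and 3.44, 1.12, 2.83 and 2.94 in D3. Mouse 17 was level with the D1 livers, and the other 3 D3 livers were far above. The difference was 1.65 (SE 0.32, adjusted p = 0.0925), and without mouse 17 it was 2.14 with an adjusted p of 4.02e-05, the lowest over the settings run, of which the highest was 0.277. Scn4b, a regulatory subunit of voltage-gated sodium channels, followed a like pattern over the mice, with 0.61, 0.76, 0.66, 0.20 and 1.06 in D1 and 2.72, 1.26, 1.89 and 2.61 in D3, a difference of 1.46 (SE 0.30, adjusted p = 0.108). For both genes the D2 mean was below the D1 mean, so their pattern was a high D3 and not a graded series.

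Of the others named as higher, Scyl3, a kinase-like protein without known catalytic activity, gave 0.75 (adjusted p = 0.0817, and 0.0303 to 0.307 over the settings run, called without mouse 16), Fam102a gave 0.93 (0.14) and Osbpl3, an oxysterol-binding protein, gave 0.74 (0.123). Gpt2, the mitochondrial alanine aminotransferase, was 2.91 ± 0.13 (SD, n = 5) in D1 and 3.53 ± 0.38 (n = 4) in D3, a difference of 0.62 (limma adjusted p = 0.14). Bmf, a pro-apoptotic BH3-only protein of the Bcl2 family, was 0.41, -0.27, 0.22, -0.30 and 0.64 in D1 and 0.87, 1.42, 1.16 and 1.01 in D3, a difference of 0.97 (adjusted p = 0.14). The Bcl2 family as a list had a median difference of 0.07 over 11 tested members, of which 8 were higher and 0 called. None of these genes passed the threshold with all livers of D1 to D3, and a second probe of Osbpl3 gave the same difference of 0.74.

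Tmc5, a transmembrane channel-like gene, was 1.52, 1.43, 0.71, 2.24 and 1.80 in D1 and -0.07, -0.18, -0.17 and 0.06 in D3. It was well above background on all 5 D1 arrays and on none of the 4 D3 arrays, so its fold is a bound: it was at least 2.42-fold higher in D1 than in D3 (adjusted p = 0.0687). It was called with slide as a block (adjusted p = 0.0484) and without mouse 8 (0.0146) or mouse 16 (0.0439), in a range of 0.0146 to 0.235 over the settings run. The D2 livers were mixed, from -0.09 to 1.02. Olfr441, an olfactory receptor gene, was well above background on 3 of the 5 D1 arrays and on 0 of the D3 arrays, and was at least 1.32-fold higher in D1 (adjusted p = 0.128). For such bounds the D3 signal was taken, array by array, as the higher of its own value and the lowest signal among probes well above background.

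Dnajb1, an Hsp40 co-chaperone, was -0.63, -0.33, -0.82, -0.61 and -1.01 in D1 and -1.25, -1.39, -1.22 and -1.37 in D3. The 4 D3 livers lay close together and below all D1 livers, by -0.63 (SE 0.12, adjusted p = 0.0817). It was called with slide as a block (-0.65, adjusted p = 0.0484) and without mouse 8 (0.0475) or mouse 10 (0.0287), in a range of 0.0287 to 0.235 over the settings run. The D2 mean was -1.03 and the D0 mean -0.30. The other heat shock genes did not follow it as a group: over 17 tested members the median difference was 0.13, 10 were higher, 0 were called, Hsp90ab1 was higher by 0.26 with no overlap, and Hspa8 gave -0.17, -0.43 and -0.18 on its 3 probes.

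Clca3a2, an accessory protein of chloride channels, was 1.84, 2.06, 2.66, 1.46 and 2.20 in D1 and 1.26, 0.84, 0.90 and 0.71 in D3 (-1.12, SE 0.21, adjusted p = 0.0817). Mpeg1, which encodes the macrophage pore-forming protein perforin-2, gave -0.63 (adjusted p = 0.138) and -0.60 on its second probe. Tab2, an adaptor of the kinase TAK1, gave -0.59 (adjusted p = 0.138). For 3 of the genes named as lower the second probe did not show the difference: Syne2, which ties the nucleus to the cytoskeleton, gave -0.63 and 0.17, Ilrun gave -0.61 and -0.01, and Neb, the gene of the muscle protein nebulin, gave -0.94 and 0.15. Without mouse 16 the first probes of Syne2, Ilrun and Neb and that of Clca3a2 were called (adjusted p = 0.0439, 0.0467, 0.0439 and 0.0418), and Ilrun also without mouse 8 (0.0202) and Clca3a2 without mouse 9 (0.0492), whereas over the settings run the adjusted p reached 0.544, 0.399, 0.299 and 0.235.

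**Figure D2:**
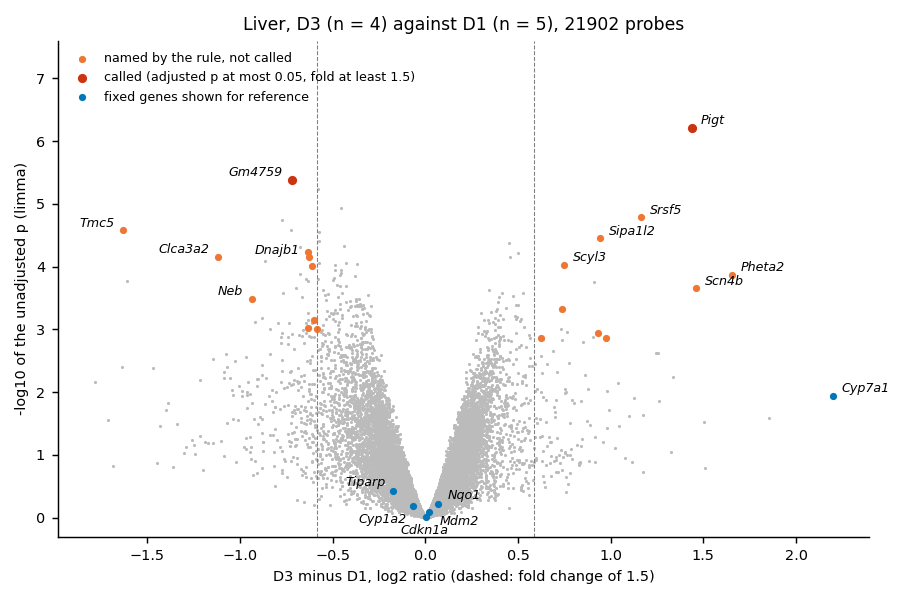
Difference between D3 and D1 livers as a log2 ratio (horizontal axis) against -log10 of the unadjusted p of limma (vertical axis), 1 point for each of the 21902 probes tested, with dashed lines at a fold of 1.5. Pigt and Gm4759 are the 2 called probes, the genes named as not called follow them, and Cyp1a2, Nqo1, Tiparp, Cdkn1a and Mdm2 sit near the origin.

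The dose slope over the 14 dosed livers, per 10 mg/kg-bw/day, passed an adjusted p of 0.05 for 6 probes (0.0274%), 2 rising (0.00913%) and 4 falling (0.0183%), and 2810 (12.8%) had an unadjusted p under 0.05. Pigt rose by 0.24 and Srsf5 by 0.19 on the log2 scale per 10 mg/kg-bw/day (adjusted p = 0.00781 and 0.0324). Gm4759 changed by -0.12 (adjusted p = 0.029). Kif3a, a motor subunit of kinesin-II, changed by -0.08 with group means of -2.13, -2.26 and -2.59 from D1 to D3. The other 2 falling probes carry transcript accessions without a symbol, 1 of which (-0.58 between D1 and D3, adjusted p = 0.042) missed the call for D3 against D1 by its fold. The slope uses the same D1 and D3 arrays as the contrast and is not separate evidence.

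Some calls depended on single livers and on the slide. With slide as a block, 16 probes were called (5 higher, 11 lower, 0.0731%). Without D3 mouse 16 there were 44 calls (12 higher, 32 lower, 0.201%), and without D1 mouse 8 there were 28 (5 higher, 23 lower, 0.128%), of which 11 probes were shared between both. Without mouse 10 there were 16 and without mouse 9 there were 5, whereas without mouse 6, mouse 7 or mouse 18 limma called 0, with 2332, 2309 and 2286 probes at an unadjusted p under 0.05. Without mouse 19, or without any 1 of D2 mice 12 to 15, there was 1 call. In the deposited table, with slide as a block, without mouse 8 and without mouse 16, 4 probes were called each time: Pigt, Gm4759, Srsf5 and a probe on the reverse strand of chr19:5801802-5802597 (mm9, as the probe is named in the files). That last probe gave -0.77 (adjusted p = 0.0656) with all livers, and other probes of the same region gave -0.87 (0.0817) and -0.70 (0.108).

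No gene of the AhR battery was called between high and low dose in liver. Cyp1a1, the classical AhR target, was well above background on 1 of the 14 arrays and was not tested: its log2 ratio was 0.29, 0.13, 0.44, 0.04 and 0.31 in D1 and 0.16, 0.08, 0.10 and -0.04 in D3. Cyp1b1 was above background on 3 arrays and the AhR repressor Ahrr on 0, and no fold is given for these 3 genes. Cyp1a2, the constitutive hepatic member of the family, was 5.10, 5.27, 4.58, 5.14 and 4.62 in D1 and 4.63, 4.93, 4.83 and 5.11 in D3. Those ranges overlapped almost fully, the difference was -0.07 (SE 0.15, unadjusted p = 0.66), and it turned to 0.07 in the Cy5 channel alone and to 0.01 without mouse 7 or mouse 16. Nqo1, a quinone reductase, gave 0.07 (SE 0.13) and turned to -0.08 with median centring, which moved the median of all probes to -0.12. Tiparp, an ADP-ribosyltransferase that damps AhR, gave -0.18 (SE 0.19) and -0.016 without mouse 8. Over the 6 tested genes of the list 2 were higher, 0 were called and the median difference was -0.07, against -0.000795 over all probes tested, of which 49.8% were higher (54.3% of the probes with a symbol). The largest difference of the list was that of Gsta1, a glutathione transferase, at 0.59 (SE 0.37, adjusted p = 0.539). In lung, Cyp1a1 averaged 3.69 at D1 and 1.31 at D3 (adjusted p = 0.191).

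The targets of the other xenobiotic sensors were likewise without calls. Of 8 tested CAR and PXR targets 0 were higher, with a median of -0.09 and 0 with an unadjusted p under 0.05. Among them, Cyp2b10 was 2.24 to 3.45 in D1 and 1.66 to 4.12 in D3, and Cyp3a11 was 7.21 to 8.69 and 6.72 to 8.70. Their differences of -0.0022 (SE 0.68) and -0.10 (SE 0.39) both turned in sign under other processing, and a second probe of Cyp3a11 gave 0.07. The 13 tested Nrf2 targets had a median of -0.03 with 6 higher and 0 called. Gsta2, another glutathione transferase, was the one with an unadjusted p under 0.05: it was 4.04, 1.80, 0.64, 1.13 and 2.34 in D1 and 3.07, 4.55, 2.21 and 4.14 in D3, with means of 1.99 and 3.49 (SE of the difference 0.63, adjusted p = 0.343). Its D1 and D3 livers overlapped.

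The DNA damage response gave no calls either. Over 18 tested p53 targets the median difference was 0.02 and 11 were higher, and without mouse 16 it was -0.030 with 7 higher. Cdkn1a, which halts the cell cycle, gave 0.00 (SE 0.19), Mdm2, the ubiquitin ligase of p53, gave 0.02 (SE 0.09), and Ccng1 gave 0.13 (SE 0.13). The sign of each of these 3 differences turned with median centring, a scaling that moved the median of all probes to -0.12. Sesn2, a stress sensor that restrains mTORC1, was -1.56 to -1.14 in D1 and -2.04 to -1.62 in D3, with no overlap and a difference of -0.43 (SE 0.12, adjusted p = 0.177). Nucleotide excision repair, the pathway that removes bulky adducts, had a median of 0.00 over 15 tested genes, 8 of them higher. Cell cycle and DNA replication genes had a median of 0.06 over 17, with 11 higher.

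**Figure D3:**
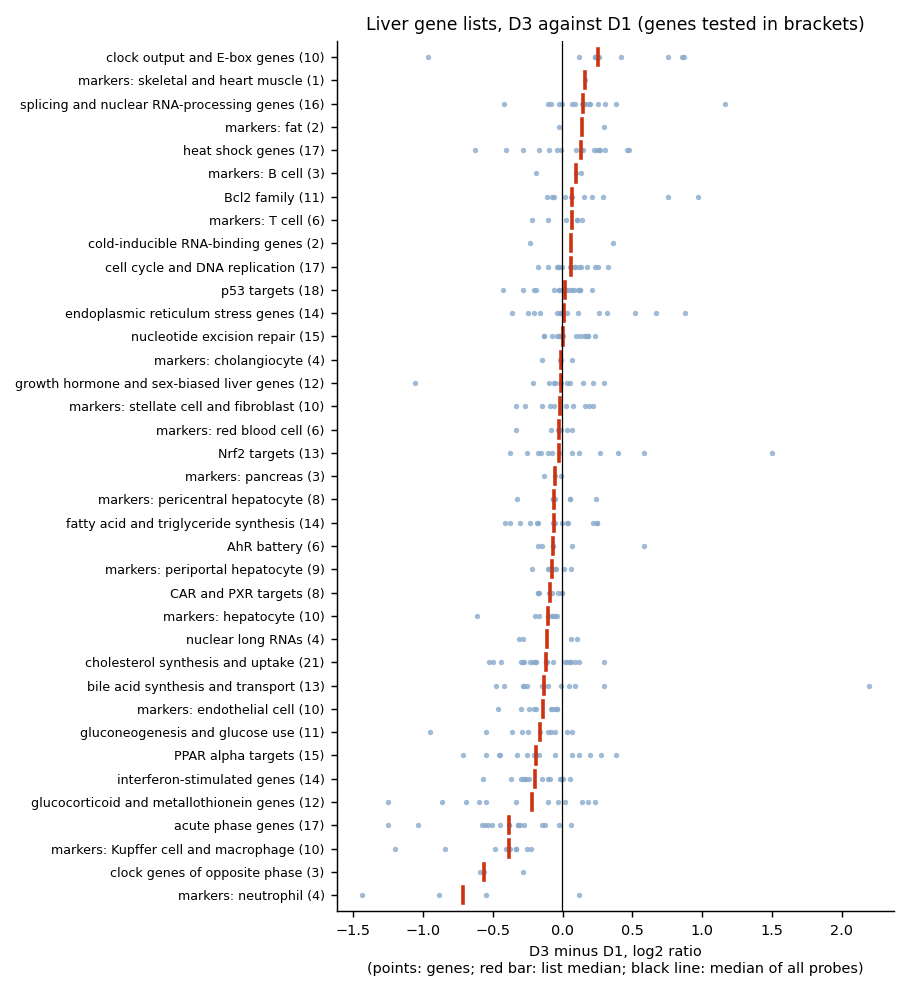
Difference between D3 and D1 livers as a log2 ratio (horizontal axis) for the tested genes of 37 lists (vertical axis, number of tested genes in brackets), 1 point per gene, a red bar at the list median and a black line at the median of all probes. The clock output list has a median of 0.26, the Kupffer cell and acute phase lists -0.38 each, and the AhR battery -0.07. No gene in any list was called.

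No circadian gene was called. Of 10 clock output and E-box genes 9 were higher at D3, with a median of 0.26 and 0 called, and 3 had an unadjusted p under 0.05 in that direction and 1, Nr1d1, in the other. Of the 3 tested genes of opposite phase 0 were higher, with a median of -0.56 and 1 with an unadjusted p under 0.05. Without D1 mouse 8 the medians were 0.40 and -0.57, and without D3 mouse 16 they were 0.41 and -0.58.

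Dbp, a clock-driven transcription factor, was 0.99, 1.52, 2.51, 1.69 and 0.92 in D1, 1.00, 2.70, 1.93, 1.49 and 2.82 in D2, and 2.16, 2.48, 2.48 and 2.46 in D3. D1 mouse 8 was level with the D3 livers and the other D1 livers were below them. The difference was 0.87 (SE 0.36, adjusted p = 0.339), and 0.89 on a second probe. Its paralog Tef was 0.63, 0.94, 1.22, 1.00 and 0.10 in D1 and 1.05, 1.61, 1.63 and 1.83 in D3, a difference of 0.75 (adjusted p = 0.239). Per2, a repressor of the clock, was 0.30, 0.47, 1.24, 0.51 and 0.12 in D1 and 1.09, 1.67, 1.29 and 1.49 in D3, a difference of 0.86 (adjusted p = 0.206). For both genes mouse 8 was the single D1 liver inside the D3 range. Without it the differences were 1.12 for Dbp (adjusted p = 0.156), 0.86 for Tef (0.159) and 1.04 for Per2 (0.0911).

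On the opposite phase, Arntl, the core activator BMAL1, was 0.26, -0.22, -1.90, -0.69 and 0.37 in D1 and -0.72, -1.10, -0.96 and -1.33 in D3, and again mouse 8 stood at the far end of D1 (difference -0.59, adjusted p = 0.633, and -0.96, adjusted p = 0.279, without it). Nfil3, a repressor that opposes Dbp, was 0.62, 0.32, 0.22, -0.39 and 0.40 in D1 and -0.27, -0.33, -0.38 and -0.33 in D3, a difference of -0.56 (adjusted p = 0.173). Here mouse 9 was the D1 liver level with D3. Nr1d1, the repressor REV-ERB alpha, was the exception in the output list: it was 2.17, 2.28, 1.65, 2.07 and 1.93 in D1 and 1.70, 1.17, 0.84 and 0.50 in D3, a difference of -0.97 (SE 0.27, adjusted p = 0.173). The labels give no hour of collection for single animals, and its part in these values was not tested.

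In lung the same contrast was positive for Dbp by 1.10 (adjusted p = 0.0484) and for Per3 by 0.79 (adjusted p = 0.0418). In liver Per3 gave 0.23 (adjusted p = 0.591). Arntl gave -0.64 in lung (adjusted p = 0.218) and Nr1d1 gave 0.08 (adjusted p = 0.855). The difference between tissues was not called for Dbp, Per3 or Arntl (adjusted p = 0.922, 0.48 and 0.992). For Nr1d1 it was -1.045 (SE 0.33, adjusted p = 0.241), also not called.

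**Figure D4:**
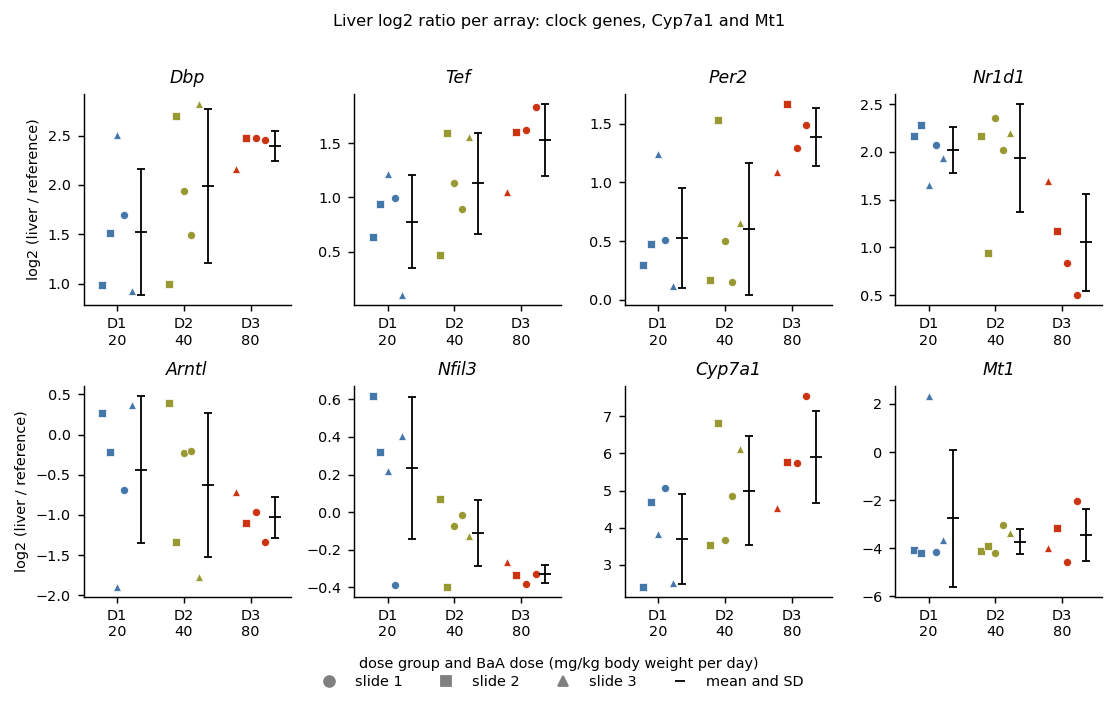
Log2 ratio of liver to reference (vertical axis) of 6 clock genes, Cyp7a1 and Mt1 by dose group in mg/kg-bw/day (horizontal axis), 1 point per mouse, its shape giving the slide, with a bar at the group mean ± SD. Dbp, Tef, Per2 and Cyp7a1 have higher means in D3 than in D1, Nr1d1, Arntl and Nfil3 lower ones, and for Mt1 a single D1 liver (mouse 8, at 2.34) lies above all others.

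Genes of inflammation and of liver macrophages were mostly lower at D3 than at D1, again with 0 called. Of 17 acute phase genes 1 was higher, with a median of -0.38, and 6 had an unadjusted p under 0.05 in the lower direction. Fgg, a fibrinogen chain, was 10.22, 10.07, 10.13, 10.15 and 9.74 in D1 and 9.40, 9.54, 9.16 and 9.91 in D3, a difference of -0.55 (SE 0.14, adjusted p = 0.14), with mouse 10 of D1 inside the D3 range. Saa2, a serum amyloid, was 9.44, 8.77, 10.17, 7.92 and 8.52 in D1 and 7.42, 8.61, 7.95 and 7.74 in D3 (-1.04, adjusted p = 0.335, and -0.73, adjusted p = 0.4, without mouse 8). Saa1 gave -0.50 (adjusted p = 0.719), -0.25 without mouse 8 and -0.013 without mouse 16. Within slides 1, 2 and 3 its difference was 0.61, 0.02 and -2.01. The mean of the list was 7.12 in mouse 8 and 6.02 to 6.50 in the other D1 livers, against 5.71 to 6.26 in D3. It was 5.869 to 6.265 in D2 and 5.686 to 6.441 in D0, so both of these groups overlapped D3. Without mouse 8 the median difference was -0.25 and 3 of the 17 were higher, and without mouse 16 it was -0.29.

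All 10 tested Kupffer cell and macrophage markers were lower at D3, with a median of -0.38 (-0.36 without mouse 8, -0.47 without mouse 16), and 2 had an unadjusted p under 0.05. Cd5l, a protein that macrophages secrete, was 5.79, 6.40, 6.34, 6.59 and 6.52 in D1 and 5.88, 5.72, 4.88 and 5.47 in D3, a difference of -0.84 (SE 0.23, adjusted p = 0.17). Clec4f, a lectin particular to Kupffer cells, gave -0.33 (SE 0.17), and Timd4, a receptor for dying cells, gave -0.48 (SE 0.21). The list mean was 2.98 to 3.76 per array in D1, 2.42 to 3.79 in D2 and 2.76 to 3.23 in D3, so the groups overlapped. Mpeg1, described above, is also a macrophage gene, but it was named because it was lower at D3 and is not separate evidence. Its first probe was well above background on 1 of the 4 D3 arrays.

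Neutrophil markers were highest in mouse 8: the mean of the 4 tested genes was 2.77 in that liver, 0.44 to 1.24 in the other D1 livers and 0.29 to 0.82 in D3. S100a9 was 2.18, 3.92, 6.27, 2.80 and 3.26 in D1 and 2.63, 1.58, 3.06 and 1.74 in D3, a difference of -1.43 (adjusted p = 0.355), and -0.79 without mouse 8 (adjusted p = 0.372). Ltf, Mpo and Ngp were not tested since too few arrays were above background. The median difference of the list was -0.71, and -0.28 without mouse 8, with 1 of the 4 higher in both. That gene, Elane, gave 0.12, and 0.15 without mouse 8. S100a8 gave -0.88 and Camp -0.55, and without mouse 8 they gave -0.41 and -0.16. The same liver moved the median of the glucocorticoid and metallothionein genes, which was -0.22 over 12 genes and -0.0056 without it. With it 4 of the 12 were higher, and 3 had an unadjusted p under 0.05, all lower. Without it 6 were higher, and at that threshold 3 were lower and 1 higher. Zbtb16, Klf9 and Pdk4 gave -0.87, -0.34 and -0.55 with mouse 8 and -0.88, -0.41 and -0.65 without it. The difference for Mt1 was -0.69 (SE 1.06) with mouse 8 and 0.58 without it.

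The remaining marker lists showed no shift of such size in their medians. The median was -0.14 for endothelial markers (0 of 10 higher), -0.02 for stellate cell and fibroblast markers, -0.01 for cholangiocyte markers, 0.09 for B cell markers and 0.07 for T cell markers. Of the endothelial markers 2 had an unadjusted p under 0.05, as in the Kupffer cell list, and for 1 the D3 and D1 livers did not overlap. Among them Kdr gave -0.46 (adjusted p = 0.0925), -0.50 without mouse 8 (0.0476) and -0.53 without mouse 16 (0.0364). Its fold stayed below the threshold for a call. Hepatocyte markers had a median of -0.10 with 0 of 10 higher, pericentral ones -0.06 and periportal ones -0.08, and without mouse 16 the pericentral median was 0.017. Markers of red blood cells, pancreas, fat and muscle, which could be carried over at dissection, had medians of -0.02, -0.05, 0.14 and 0.16 over 6, 3, 2 and 1 tested genes.

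Among metabolic genes, Cyp7a1, the rate-limiting enzyme of bile acid synthesis, had the largest difference of any list member, with means of 3.70 in D1 and 5.90 in D3. Its values were 2.40, 4.69, 3.83, 5.06 and 2.52 in D1, 3.53, 6.82, 3.67, 4.86 and 6.12 in D2, and 4.52, 5.78, 5.75 and 7.55 in D3. The SE of the difference was 0.76 (unadjusted p = 0.0114, adjusted p = 0.255), with D1 mice 7 and 9 inside the D3 range. The other bile acid genes did not share it: the list of 13 had a median of -0.13 with 4 higher, Cyp8b1 gave -0.15 (-0.44 without mouse 8 and -0.51 without mouse 16) and Nr0b2, the repressor SHP, gave -0.48 (adjusted p = 0.4). Cholesterol synthesis genes had a median of -0.12 over 21 (7 higher), PPAR alpha targets -0.19 over 15 (5 higher), fatty acid and triglyceride synthesis -0.06 over 14 (5 higher), and gluconeogenesis and glucose use -0.16 over 11 (2 higher). Without mouse 16 the cholesterol list had a median of -0.28 with 4 higher, the fatty acid list had -0.14 without mouse 16 and -0.15 without mouse 8, and the bile acid list had -0.22 without mouse 8. Interferon-stimulated genes had a median of -0.19 over 14 with 2 higher.

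Genes of RNA splicing had a median of 0.14 over 16 tested members, 11 of them higher and 0 called. Next to Srsf5, the related factors Srsf6 and Srsf1 gave 0.39 (SE 0.13, adjusted p = 0.247) and 0.26 (SE 0.12, adjusted p = 0.394), and the splicing kinase Clk4 gave 0.30 (adjusted p = 0.335). Luc7l3 went the other way, by -0.42 (adjusted p = 0.218). With median centring the median of the list was -0.04, under a scaling that moved the median of all probes to -0.12. Endoplasmic reticulum stress genes had a median of 0.01 over 14, with 7 higher.

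Pigt, Scn4b, Bmf and Sipa1l2, described above, had also been chosen with their values against the vehicle livers known. Apart from these, 6 further genes were chosen in that way. Every gene called between D1 and D3 was described above, so the 6 could hold no called gene. Pde5a, a cyclic GMP phosphodiesterase, was 1.60, 1.41, 1.15, 0.78 and -0.21 in D1 and -0.29, -0.07, 0.04 and -0.25 in D3 (-1.09, adjusted p = 0.212), with mouse 10 inside the D3 range. Slc49a4 showed a like order, 1.82, 1.51, 1.30, 1.30 and 0.34 against 0.06, 0.65, 0.53 and 0.13 (-0.91, adjusted p = 0.23). Acnat2, an acyltransferase of bile acid and fatty acid conjugation, gave -1.15 (adjusted p = 0.435), the small nuclear RNA gene Rnu2-10 gave -0.42 (adjusted p = 0.294), Bend3 gave 0.17 and the nuclear long RNA Neat1 gave 0.06.

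The last comparison asked whether the difference between high and low dose was the same in liver and in lung of the same series. It used 29 arrays, 14 of liver and 15 of lung, and 21050 probes well above background in both. The difference between tissues was called for 19 probes (0.0903%), 4 more positive in liver (0.019%) and 15 more negative in liver (0.0713%), and 2141 (10.2%) had an unadjusted p under 0.05. In lung itself 290 of 29948 probes were called for D3 against D1 (0.968%). The deposited table gave 11 calls for the difference between tissues.

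Most of these probes had a difference near 0 in liver and above 0 in lung. Hnrnpdl, an RNA-binding protein, gave -0.14 in liver and 1.07 in lung, a difference of -1.21 (SE 0.20, adjusted p = 0.01). Pan2, a deadenylase, gave -0.02 and 0.71, Rgs11 gave 0.03 and 1.16, Sap25 gave -0.02 and 1.12, and Ndrg2 gave -0.10 and 0.55. A probe annotated NEAT1 gave 0.02 in liver and 1.91 in lung, a difference of -1.89 (adjusted p = 0.0434). The Neat1 probe described above gave 0.06 and 1.74, a difference of -1.68 (SE 0.39, adjusted p = 0.0804), and was not called.

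Pheta2 and Tmc5 were the named liver genes that also differed between tissues. Pheta2 gave 1.65 in liver and -0.22 in lung, a difference of 1.87 (SE 0.38, adjusted p = 0.0459). Tmc5 was called too (adjusted p = 0.0434), but it was well above background on 0 of the 4 D3 livers, so no size of its difference between tissues is given. Others more positive in liver included Tgfb2, a growth factor of the TGF beta family (0.18 against -0.46), and Fnip2, a partner of folliculin (0.43 against -0.40). For Pigt the lung gave 0.71 (adjusted p = 0.48), and the difference between tissues was 0.72 (SE 0.59, adjusted p = 0.733).

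**Figure D5:**
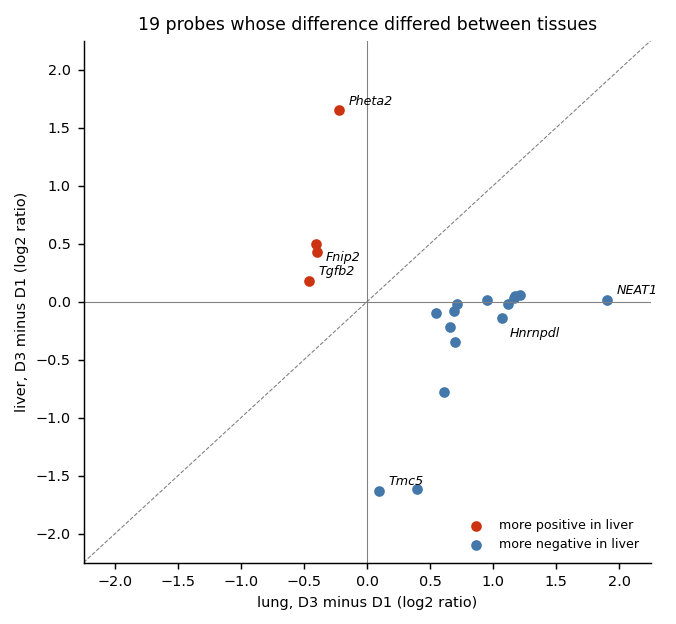
Difference between D3 and D1 in lung (horizontal axis) against the same difference in liver (vertical axis), both as log2 ratios, 1 point for each of the 19 probes called for the difference between tissues, red where more positive and blue where more negative in liver, with a dashed line of equal differences. Pheta2 lies far from 0 in liver and near 0 in lung, the point of Tmc5 rests on D3 livers not well above background, and most of the others lie near 0 in liver and above 0 in lung.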

How the data were processed

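Expression was measured on 2-colour Agilent mouse arrays (62976 spots, 59305 with gene probes). Per the file headers, the deposited scanner files give linear spot intensities from Feature Extraction 10.7.3.1, with a grid built on mm9. The second deposited file, the authors' log2 ratios, was LOWESS-normalised from median signals without background correction. The scanner medians were normalised here by loess within each array, spots marked as outliers (0.524%) were left out, and spots of a probe were averaged. The resulting log2 ratios correlated with the authors' table at r of 0.9963 to 0.9975 per array. Symbols came from a RefSeq table of GRCm38.p6 (26413 of 55681 probes, 20018 symbols).

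Groups and mouse numbers came from the labels. Probes were tested if 4 or more of the 14 dosed liver arrays had them well above background in Cy5. The contrasts used limma 3.58.1 under R 4.3.3, with the package data.table (1.17.8), on D1, D2 and D3, with an adjusted p of at most 0.05 and a fold change of at least 1.5, the thresholds of the study, which used MAANOVA. The scripts were tested on simulated data. A gene in a list is represented by its probe with the brightest mean Cy5 signal. The genes named are, in each direction, called probes with a symbol, filled to 10 by the smallest unadjusted p among non-overlapping probes of fold 1.5 or more, plus fixed genes of the AhR, p53, clock and metabolic lists. Cd5l, Tef, Per2, Nfil3, Gsta2, Sesn2, Fgg, Saa2 and other single list members were named after their values were seen. The comparison, the members and the lists were chosen with earlier results of these data known. The alternatives were the deposited table, other background corrections and normalisations, other filters, slide and mouse blocks, other sets of samples and leaving out each replicate. Slide as a block with all dose groups, slide as a block in the deposited table, and the lists without mouse 8 or mouse 16 were chosen after seeing the data. The series holds no liver array of D3 mouse 20, so the lung of that animal entered the comparison of tissues without its liver. The values of 1 gene called for the difference between tissues are not reported here.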

Additional observations from a re-analysis of the deposited data

Results flagged for a closer look

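Each group of 4 or 5 livers was examined for a single array far from the rest. The genes were those named by rule, the fixed ones and the further ones chosen with their values against the vehicle livers known. In 7 of 141 such groups an array was farther out than the critical value of Dixon's test allows. Chance flags about 1 in 20 groups, which is 7.05 here.

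Mt1 was 2.34 in D1 mouse 8, and -4.21 to -3.64 in the other D1 livers. Cdkn1a was -2.47 in D1 mouse 10, against -3.37 to -3.18 in the others. In D3 mouse 16 the clock genes Dbp (2.16, against 2.46 to 2.48) and Per3 (-0.047, against 0.27 to 0.31) were lowest. Nr1d1 was 0.94 in D2 mouse 12, against 2.02 to 2.36. In D2 mouse 15 both Pde5a (1.59, against 0.05 to 0.30) and Slc49a4 (1.96, against 0.55 to 0.79) were highest of their group, near the D1 livers of mice 6 to 9.

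The difference between high and low dose was itself different between liver and lung for 19 probes by limma's test of the interaction, with an effect of 1.87 for Pheta2, which was near the D1 level in D3 mouse 17.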

How the results depend on the processing

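The numbers of calls below are for D3 against D1, the dose slope and the difference between liver and lung, in that order, and were 2, 6 and 19. The deposited table gave 7 for D3 against D1 and 11 for the difference between tissues. Normexp gave 12 for the difference between tissues, and no filter on dim probes gave 7. Agilent's processed signals gave 11 and 12 for the first and second, the Cy5 channel alone gave 7 for D3 against D1 and 30 between tissues, and probes above background on all arrays gave 4 and 13 for the first and second. Slide as a block gave 16, 22 and 55. The D1 and D3 arrays alone gave 2 for D3 against D1, both higher and 1 of them shared, and 11 between tissues, and all dose groups with the vehicle gave 6, 164 and 12. Chosen after seeing the data, slide as a block gave 26, 475 and 32 with all dose groups and 19, 19 and 56 in the deposited table. Median centring gave 0, 0 and 0 with limma, with 2355, 1543 and 228 probes at an unadjusted p under 0.05, and moved the median of all probes to -0.12, relative to which Pigt (1.29) and Gm4759 (-0.91) kept their direction. Leaving out 1 replicate gave 0 to 44, 0 to 132 and 0 to 34. The slope had 132 calls without mouse 8, and the difference between tissues had 0 without mouse 7 (1805 at an unadjusted p under 0.05). The cause was not tested.

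Among genes named for D3 against D1, these turned in sign. Cyp2b10 became 0.0068 in the deposited table, 0.055 with normexp, 0.17 with processed signals and 0.14 in Cy5 alone. Cdkn1a became -0.025, -0.17 and -0.040 with normexp, processed signals and Cy5 alone, and -0.15 with median centring. With median centring, where the median of all probes was -0.12, Nqo1 became -0.083, Mdm2 -0.17, Ccng1 -0.032 and Neat1 -0.13. Nqo1 became -0.0064 and Cyp3a11 0.12 with processed signals. In Cy5 alone Cyp1a2 became 0.067, Mdm2 -0.018, Cyp3a11 0.095 and Neat1 -0.059, and Neat1 became -0.021 with slide as a block and all dose groups. Leaving out 1 replicate gave -0.15 to 0.16 for Cdkn1a, -0.16 to 0.013 for Cyp1a2, -0.43 to 0.40 for Cyp2b10, -0.38 to 0.28 for Cyp3a11, -0.024 to 0.062 for Mdm2, -1.16 to 0.58 for Mt1, -0.0098 to 0.19 for Neat1 and -0.00075 to 0.15 for Nqo1.

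No paired analysis was possible because the D3 and D1 livers share no mouse numbers. For the difference between tissues, both tissues of a mouse number are from 1 animal. The mouse as a replicate block gave 50 calls, 15 more positive and 35 more negative in liver, with all 19 among them. Over the 14 pairs, the deviations of both tissues correlated at -0.03 to 0.20. With 4 and 5 arrays, differences smaller than the spread between animals were not detectable, and signal over background limits Cyp1a1, Cyp1b1 and Ahrr.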
